A study of Mus musculus with 9 samples.

Results

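The genes described here are *Erg* and *Fli1*, which encode transcription factors of the ETS family, and 8 genes known as markers of the endothelium that lines blood vessels, *Pecam1*, *Cdh5*, *Kdr*, *Tek*, *Tie1*, *Emcn*, *Egfl7* and *Esam*. They were brought together because *Erg* was known to be higher in the cornea, a tissue without blood vessels, than in mesenchyme of the early eye. The values of the cornea against that mesenchyme therefore chose *Erg* and are given for all 10 genes as a description, with no p. All 10 genes were found among the 19369 genes listed, and all 10 passed the filter on low counts that left 14771 genes for testing. The samples came from wild-type C57BL/6 mouse embryos without any transgene or treatment, with 3 biological replicates at each of 3 embryonic days (E). The E10.5 samples are periocular neural crest (pNC), the mesenchyme around the early eye, freed with dispase from ectoderm, lens vesicle and optic cup. The E14.5 and E16.5 samples are corneas, cut away from the mesenchyme around the eye at E14.5 and at the limbus, the border of the cornea, at E16.5. The stroma and endothelium of the cornea come from the mesenchyme around the eye. The corneal epithelium comes from the surface ectoderm, which was discarded at E10.5. The corneal samples thus hold a layer whose source is left out of the pNC samples. Every sample is a pool of tissue from several eyes, so a value is an average over embryos and over all cell types that were dissected.

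In blood vessels, ERG and FLI1 bind DNA at a GGAA core and keep genes of endothelial identity switched on, and ERG is widely used as a nuclear marker of endothelial cells. The vessel genes encode the surface proteins through which endothelial cells adhere to each other and the receptor kinases through which they answer vascular growth factors. The cornea also has a layer named endothelium on its inner face, but that layer descends from neural crest, lines no vessel and is defined by other genes.

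Levels are given in FPKM, a fragment count divided by transcript length and library total, which can be compared between genes. Expected counts, the estimated number of fragments per gene, summed to between 8745161 and 9069023 per sample. The corneal samples carried markers of the cornea. The summed FPKM of 6 genes of the corneal stroma ran from 105.9 to 162.6 at E10.5 and from 8863 to 10780 at E16.5. No list of pNC markers was examined. Replicate 1 of E14.5 stood apart from its stage, with a summed stromal level of 5680 against 2191 and 3204 in replicates 2 and 3. Its summed level of 7 genes of the corneal epithelium was likewise 2088 against 619.3 and 744.0. Values that move with this library are also given without it where they change a call or shift by over 1.5 times. In bulk tissue, fewer cells of a type and less RNA per cell cannot be told apart, and this holds for every level below.

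The sequence just upstream of a transcript start is shown for the pair of vascular genes with the highest levels in the cornea, *Erg* and *Kdr*, and for *Emcn*, which was next to last at E16.5. The RefSeq-derived windows matched 6 of the 10 genes (*Egfl7*, *Emcn*, *Erg*, *Kdr*, *Tek* and *Tie1*) with 10 transcript starts between them. The 250 bases before each start are printed 5′ to 3′ along the gene's strand from GRCm38.p6, with capitals marking the ETS core GGAA or, where it lies on the other strand, TTCC. The deposited files quantify *Erg* by 1 RefSeq transcript, whose annotated start follows the first window, and the second window precedes the most upstream of the *Erg* starts found. In the GENCODE annotation the exon that follows the first window is exon 1 of 2 *Erg* transcripts and exon 2 of 1 other, for which this window is intron.
Erg, chr16:95530366-95530615, minus strand: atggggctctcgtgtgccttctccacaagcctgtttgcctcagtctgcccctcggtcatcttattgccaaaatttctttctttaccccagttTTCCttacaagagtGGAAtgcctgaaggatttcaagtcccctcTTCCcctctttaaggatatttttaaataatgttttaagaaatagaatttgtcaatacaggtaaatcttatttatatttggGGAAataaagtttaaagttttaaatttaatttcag
Erg, chr16:95586594-95586843, minus strand: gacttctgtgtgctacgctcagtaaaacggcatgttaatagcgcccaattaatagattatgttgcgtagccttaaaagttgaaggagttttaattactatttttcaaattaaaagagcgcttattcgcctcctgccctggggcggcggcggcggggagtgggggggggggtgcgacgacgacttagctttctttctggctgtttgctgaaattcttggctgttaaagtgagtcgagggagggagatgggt
Kdr, chr5:75978456-75978705, minus strand: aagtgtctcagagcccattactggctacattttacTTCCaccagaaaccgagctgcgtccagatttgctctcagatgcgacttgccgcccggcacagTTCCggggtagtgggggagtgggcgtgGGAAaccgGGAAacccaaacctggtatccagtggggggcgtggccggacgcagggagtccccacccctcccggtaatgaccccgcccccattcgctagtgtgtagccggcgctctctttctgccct
Emcn, chr3:137340828-137341077, plus strand: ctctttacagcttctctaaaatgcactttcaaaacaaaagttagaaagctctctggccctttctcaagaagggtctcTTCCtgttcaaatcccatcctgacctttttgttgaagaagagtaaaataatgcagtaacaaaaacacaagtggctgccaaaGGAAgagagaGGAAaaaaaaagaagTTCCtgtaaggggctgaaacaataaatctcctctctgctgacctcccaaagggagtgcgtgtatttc
The first *Erg* window held 4 GGAA cores over both strands, the second held 0, *Kdr* held 4 and *Emcn* held 4. Such a core was present in 93.4% of all 32851 upstream windows of this length, with a median of 3, and 33.4% held at least 4. The longer form AGGAAG, which contains the core, occurred 2 times in the *Emcn* window and 0 times in the other 3 windows printed, against 29.5% of all windows with at least 1. Another *Erg* window, chr16:95459349-95459598, is not printed and held 2 GGAA cores and 1 AGGAAG. The form CCGGAAG, which also contains the core, was found in none of the 10 windows of these genes and in 6.91% of all windows. These matches of letters are a description of the windows only.

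*Erg* (chromosome 16, 95359169 to 95586600) was low in the pNC and was the highest of the 10 genes in the cornea. Its FPKM was 5.98, 6.07 and 3.94 in the E10.5 samples, 66.7, 80.9 and 94.7 in the E14.5 corneas and 62.3, 75.2 and 73.8 in the E16.5 corneas. Every corneal sample lay above every pNC sample, a separation found upward in 31.4% of all tested genes at E14.5 and 33.0% at E16.5, while the ranges of the corneal stages overlapped. The stage means were 5.33 ± 1.2 (SD, n = 3), 80.8 ± 14 and 70.4 ± 7.07. The E14.5 cornea stood 3.91 above the pNC on the log2 scale (SE 0.19), a 15.0-fold difference, and the E16.5 cornea stood 3.87 above it (SE 0.19). By mean FPKM, *Erg* ranked 9332 of 19369 genes in the pNC, 799 at E14.5, then 841 at E16.5.

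*Fli1* (chromosome 9, 32422204 to 32543432), the close relative of *Erg* that shares its DNA core and much of its role in vessels, ran the other way. Its FPKM was 14, 14.3 and 12.4 at E10.5, 3.57, 4.47 and 5.27 at E14.5 and 2.07, 2.01 and 1.74 at E16.5. No sample of a stage overlapped with any sample of another stage, and the level was lower at each later stage. Against the pNC, *Fli1* stood at -1.62 on the log2 scale at E14.5 (SE 0.15) and at -2.65 at E16.5 (SE 0.17).

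*Kdr* (chromosome 5, 75932827 to 75979072) encodes VEGF receptor 2, the main receptor through which endothelial cells answer vascular endothelial growth factor. Its FPKM was 32.5, 29.5 and 18.3 in the pNC, 21.8, 30.3 and 38.9 at E14.5 and 21.7, 29.3 and 27.5 at E16.5. The 3 stages overlapped throughout, and their means of 26.8 ± 7.49, 30.3 ± 8.58 and 26.2 ± 3.96 (SD, n = 3) lay within the spread of the replicates. The log2 difference from the pNC was 0.17 at E14.5 (SE 0.24), with a sign that turned without replicate 3 of E10.5 or without replicate 3 of E14.5. *Kdr* stood at 0.12 at E16.5 (SE 0.24), with a sign that turned with library totals in place of TMM scaling, with limma on the log2 FPKM and without replicate 3 of E10.5.

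The other receptor kinases were *Tek* (chromosome 4, 94739086 to 94874976), the angiopoietin receptor, and *Tie1* (chromosome 4, 118471191 to 118489849), its partner receptor. *Tek* gave an FPKM of 9.44, 10.8 and 7.20 in the pNC, 0.73, 1.94 and 2.0 at E14.5 and 0.07, 0.27 and 0.17 at E16.5. *Tie1* gave 24.5, 21.5 and 12.8 in the pNC, 5.02, 10.9 and 11.5 at E14.5 and 0.32, 1.82 and 1.04 at E16.5. The stages did not overlap for either gene, in contrast to *Kdr*. At E16.5 *Tek* rested on only 3, 11 and 7 expected counts, so its level there rests on few fragments. The E16.5 cornea stood at -5.59 against the pNC for *Tek* (SE 0.44), a 48.0-fold difference, and at -4.05 for *Tie1* (SE 0.48).

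The genes of endothelial contacts and of the cell surface had the same order of stages. *Pecam1* (chromosome 11, 106654213 to 106715281), the adhesion protein CD31, gave an FPKM of 26.3, 21.6 and 17.1 in the pNC, 6.14, 11.5 and 10.3 at E14.5 and 0.32, 1.35 and 0.81 at E16.5. *Cdh5* (chromosome 8, 104101613 to 104144504), VE-cadherin of the endothelial adherens junction, gave 38.8, 36.6 and 20.3, then 8.23, 16.7 and 15.8, then 0.17, 1.85 and 1.56. Both were lower in every corneal sample than in every pNC sample, and lower in every E16.5 than in every E14.5 sample. *Emcn* (chromosome 3, 137341062 to 137431069), the sialomucin endomucin, gave an FPKM of 41.8, 41.9 and 32.9 at E10.5, 5.30, 9.16 and 9.87 at E14.5 and 0.23, 1.35 and 0.63 at E16.5. *Esam* (chromosome 9, 37528089 to 37538319), an adhesion protein of endothelial tight junctions, gave 21.1, 21.7 and 14.1, then 4.86, 7.91 and 8.16, then 0.37, 1.22 and 1.52. Among these 4 genes *Emcn* had the steepest difference between E16.5 and the pNC, at -5.58 on the log2 scale (SE 0.37), against -4.03 for *Esam* (SE 0.37). At E16.5 *Emcn* rested on only 3, 17 and 8 expected counts, *Esam* on 6, 20 and 25 and *Pecam1* on 9, 39 and 24.

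*Egfl7* (chromosome 2, 26581083 to 26592682) encodes a protein that endothelial cells secrete into their matrix, and by mean it was the highest vessel gene in the pNC, with a range that overlapped *Emcn*. Its FPKM was 44.7, 44.3 and 35.7 at E10.5, 15.0, 20.1 and 17.5 at E14.5 and 4.94, 6.68 and 5.86 at E16.5. The stages did not overlap, and at 5.83 ± 0.870 (SD, n = 3) *Egfl7* had a higher mean at E16.5 than the other vessel genes among the 10 except *Kdr*.

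**Figure D1:**
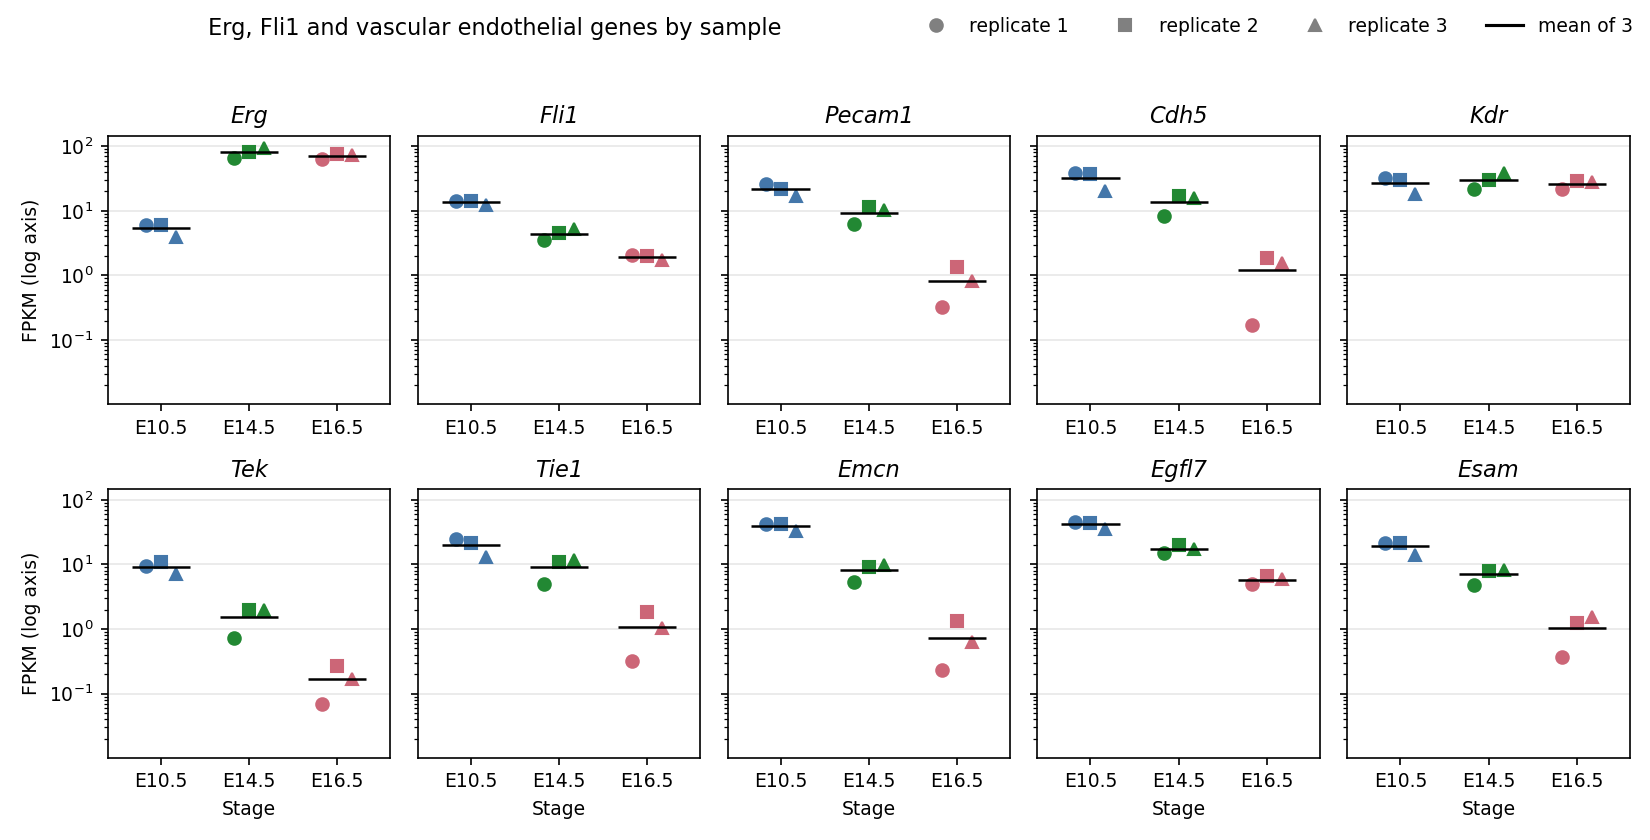
FPKM of *Erg*, *Fli1* and the 8 vessel genes on a log axis at E10.5 (pNC), E14.5 and E16.5 (cornea), with 1 symbol per replicate and a bar at the mean of 3. *Erg* moves from a mean of 5.33 to 80.8 and 70.4, *Kdr* stays between 26.2 and 30.3, and the other 8 genes have a lower mean at each later stage.

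By the call used throughout, a Benjamini-Hochberg adjusted p under 0.05 in the quasi-likelihood test of edgeR together with a change of 1 or more log2 units, the comparison of the E14.5 cornea with the pNC, which the choice of genes had used, put *Erg* on the higher side and 8 genes on the lower side. Of all tested genes, 13.6% were called higher and 7.97% lower. Without replicate 1 of E14.5, 5 genes were called lower instead of 8, since *Pecam1*, *Cdh5* and *Tie1* then stood at -0.99, -0.98 and -0.81. *Cdh5* and *Tie1* also lost this call without replicate 1 or replicate 2 of E10.5, with DESeq2 and with limma on log2(FPKM + 0.1). At E16.5 against the pNC, *Erg* was again called higher and 8 genes lower, beside 19.4% and 15.4% of all tested genes. Those 8 genes had every corneal sample below every pNC sample at both corneal stages, as had 29.6% of all tested genes in the E14.5 and 44.1% in the E16.5 cornea. The genes were chosen with these differences known, so these counts are no test of them and nothing is read from them.

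The comparison of the corneal stages with each other was not the stated ground for choosing the genes. The study had already reported it for some of them, among them *Erg*, *Cdh5*, *Tie1* and *Tek*. The p-values below are therefore given as a description and are no independent test. Between E14.5 and E16.5, 8 of the 10 genes were called lower and 0 higher, where 5.47% of all tested genes were called lower and 6.26% higher. The median log2 fold change of the 10 genes was -2.76, against -0.02 over all tested genes. *Cdh5* fell by 3.33 on the log2 scale (SE 0.51), a 10.1-fold difference with an edgeR adjusted p of 0.00120. *Pecam1* fell by 3.33 (SE 0.38, adjusted p 0.000452 by edgeR) and *Emcn* by 3.31 (SE 0.41, adjusted p 0.000566). These 3 surface proteins of endothelial cells had the largest falls of the 10 genes, with *Emcn* resting on few counts at E16.5, as given above.

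The receptors split in the same comparison. *Tek* fell by 3.02 (SE 0.49, adjusted p 0.00156 by edgeR) and *Tie1* fell by 2.94 (SE 0.49, adjusted p 0.00163). *Kdr* gave -0.05 (SE 0.24), with a 95% interval from -0.59 to 0.48 and an edgeR adjusted p of 0.884. It was the only receptor of the 3 that was not called. *Esam* fell by 2.58 (SE 0.38, adjusted p 0.00104 by edgeR) and *Egfl7* by 1.51 (SE 0.17, adjusted p 0.000457).

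*Erg* and *Fli1* also differed from each other between the corneal stages. *Erg* gave -0.04 (SE 0.16), with a 95% interval from -0.39 to 0.32 and an edgeR adjusted p of 0.879. The sign of this value turned without replicate 3 of E14.5 or without replicate 1 of E16.5, and so did that of *Kdr*. *Fli1* fell by 1.03 (SE 0.17, adjusted p 0.00165 by edgeR), a 2.05-fold difference that sits at the fold-change minimum. Without replicate 3 of E14.5 its log2 fold change was -0.87 and without replicate 3 of E16.5 it was -0.96, both short of the minimum with an edgeR adjusted p of 0.00615 and 0.00881. The 8 genes called lower had every E16.5 sample below every E14.5 sample, as had 38.3% of all tested genes, and 0 of the 10 genes had every E16.5 sample above, against 14.8%. Without replicate 1 of E14.5, 8 of the 10 genes were again called lower.

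**Figure D2:**
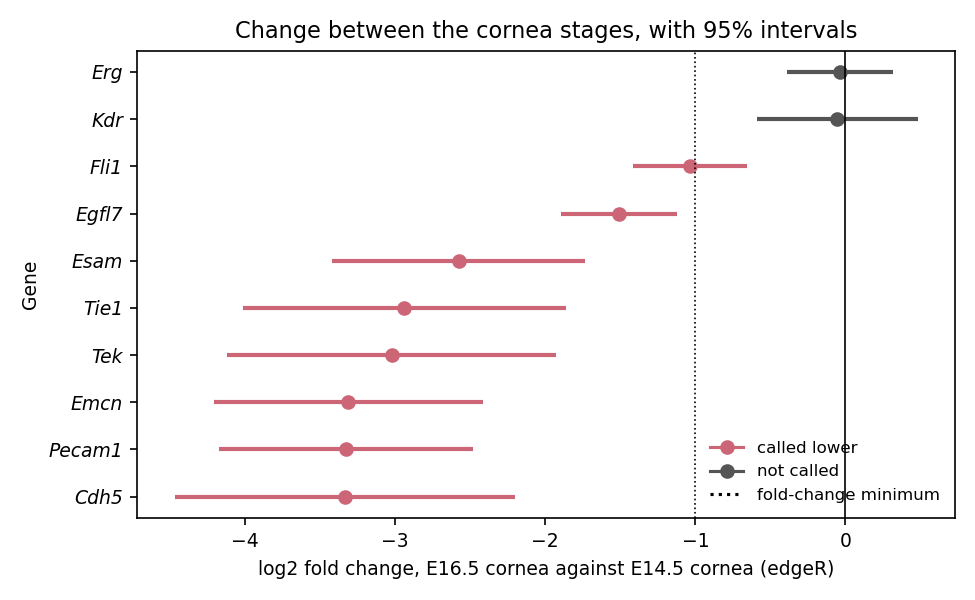
Log2 fold change of each gene at E16.5 against E14.5 from edgeR on the horizontal axis, with 95% intervals, ordered by size, the dotted line marking the fold-change minimum of 1. *Erg* and *Kdr* lie at 0 within their intervals, *Fli1* lies on the dotted line at -1.03, and the other 7 genes lie between -3.33 and -1.51.

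The order of levels within a stage showed where *Erg* passed the vessel genes. In the pNC the means ran from *Egfl7* through *Emcn*, *Cdh5*, *Kdr*, *Pecam1*, *Tie1*, *Esam*, *Fli1* and *Tek* to *Erg*. The ranges of neighbours in this order overlapped, except that *Fli1* stood clear of *Tek* and *Tek* clear of *Erg*. At E14.5 *Erg* came first, followed by *Kdr*, *Egfl7*, *Cdh5*, *Pecam1*, *Tie1*, *Emcn*, *Esam*, *Fli1* and *Tek*, and the first 3 of these did not overlap with each other, nor did *Fli1* and *Tek*. At E16.5 *Erg*, *Kdr*, *Egfl7* and *Fli1* stood in this order without overlap, while *Cdh5*, *Tie1*, *Esam*, *Pecam1*, *Emcn* and *Tek* followed with neighbours that overlapped.

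Ratios within a library do not depend on how libraries are scaled against each other. The FPKM of *Erg* divided by the median FPKM of the 8 vessel genes was 0.204, 0.237 and 0.223 in the 3 pNC samples. It was 11.7, 7.21 and 8.66 at E14.5 and 194.7, 47.5 and 57.6 at E16.5. *Erg* was thus below the typical vessel gene in each pNC sample and above it in each corneal sample, without overlap between the stages. The E16.5 ratios have a denominator of 0.320, 1.59 and 1.28 FPKM, and the mean of 99.9 ± 82.2 (SD, n = 3) rests on replicate 1, without which it was 52.5. With the mean of the vessel genes as denominator, which *Kdr* leads in the cornea, the stage means were 0.204, 6.86 and 15.5.

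Set against *Kdr*, *Erg* had similar ratios in both corneal stages. The ratio of *Erg* to *Kdr* was 0.184, 0.206 and 0.216 in the pNC, 3.07, 2.67 and 2.43 at E14.5 and 2.87, 2.57 and 2.68 at E16.5. The corneal stages overlapped in this ratio, and both stood clear of the pNC. The ratio of *Kdr* to *Cdh5* was between 0.807 and 0.900 in the pNC, between 1.82 and 2.64 at E14.5 and between 15.8 and 127.6 at E16.5.

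The ratio of *Erg* to *Fli1* separated all 3 stages. It was 0.427, 0.426 and 0.319 in the pNC, 18.7, 18.1 and 18.0 at E14.5 and 30.1, 37.4 and 42.4 at E16.5. At E14.5 the 3 libraries, replicate 1 included, spanned a narrow range with a mean of 18.3 ± 0.384 (SD, n = 3). *Fli1* against the median vessel gene gave 0.476, 0.557 and 0.699 in the pNC and 0.624, 0.398 and 0.482 at E14.5, which overlapped. At E16.5 this ratio was 6.47, 1.27 and 1.36, above both earlier stages.

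**Figure D3:**
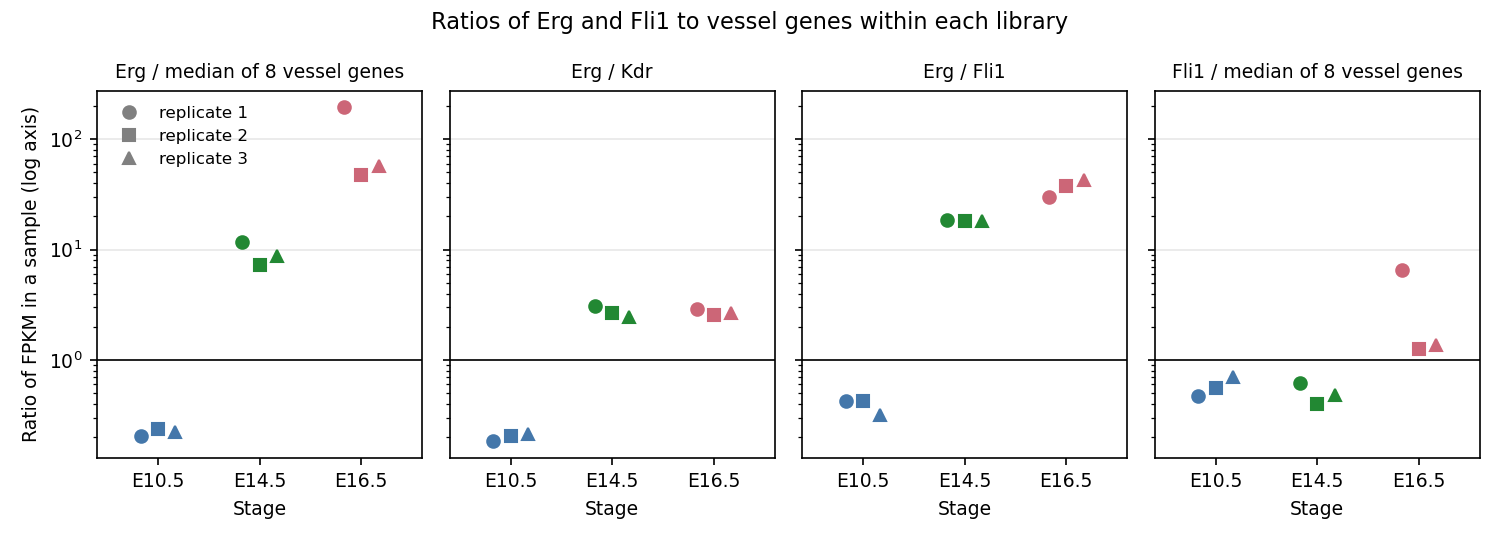
Ratios of FPKM within each library on a log axis for *Erg* to the median of 8 vessel genes, *Erg* to *Kdr*, *Erg* to *Fli1* and *Fli1* to the median of 8 vessel genes, with 1 symbol per replicate and a line at 1. *Erg* passes from below to above the line between the pNC and the E14.5 cornea in the first 3 panels, and the ratio to *Kdr* is alike at E14.5 (mean 2.72) and E16.5 (mean 2.71).

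Within a stage, the 10 genes tended to be lowest in the same library. Replicate 3 of E10.5 was the lowest of its stage in 10 of 10 genes, where it was so in 39.6% of all tested genes. *Erg* in this library was at 65.4% of the mean of the other 2 libraries, *Fli1* at 87.4%, *Kdr* at 59.0% and the 7 other vessel genes at 53.9% to 80.2%. Replicate 1 of E14.5 was the lowest in 10 of 10 genes, beside 37.9% of all tested genes, with *Erg* at 76.0%, *Fli1* at 73.3%, *Kdr* at 62.9% and the other 7 at 37.1% to 79.8%. This is the library with the higher stromal and epithelial sums given above, and their part in these lower levels was not tested.

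Replicate 1 of E16.5 was the lowest of its stage in 9 of 10 genes, beside 32.9% of all tested genes. *Fli1* was the exception at 110.0% of the mean of the other libraries. *Erg* stood at 83.6% and *Kdr* at 76.4% in this library, and the other 7 vessel genes at 9.97% to 78.8%. The lowest of these was *Cdh5*, with 6 expected counts against 66 and 56. Replicate 1 also had the highest epithelial sum of its stage, 7559 against 5216 and 5272, and the lowest stromal sum, 8863 against 10780 and 9987. The part of either in the low vessel genes was not tested.

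A longer list of 34 other vessel genes, all of them tested, gave the setting of these values. Some of them, such as *Cldn5*, *Mmrn1*, *Mmrn2*, *Robo4* and *Gata2*, had been reported as downregulated by the study from these same data. The counts and p-values of this list are therefore a description and no independent test. Their summed FPKM was 412.1, 381.4 and 254.4 in the pNC, 106.5, 153.7 and 155.8 at E14.5 and 48.7, 61.8 and 62.6 at E16.5. The lowest library of each stage was again replicate 3 of E10.5, replicate 1 of E14.5 and replicate 1 of E16.5. Between E14.5 and E16.5, 23 of the 34 genes were called lower and 0 higher, beside 5.47% and 6.26% of all tested genes, with a median log2 fold change of -2.25. *Mmrn1*, a multimerin of endothelial cells and platelets, fell by 4.0 (SE 0.60, adjusted p 0.00107 by edgeR). *Mmrn2*, an endothelial matrix protein, fell by 3.92 (SE 0.50, adjusted p 0.000623), and *Robo4*, a guidance receptor of vessels, by 3.51 (SE 0.49, adjusted p 0.000840). *Aplnr*, the apelin receptor, fell by 3.48 (SE 0.41, adjusted p 0.000495), *Flt4*, VEGF receptor 3, by 3.48 (SE 0.55, adjusted p 0.00137), and *Plvap*, of endothelial fenestrae, by 3.04 (SE 0.41, adjusted p 0.000708). *Mmrn1* gave -4.59 without replicate 3 of E16.5, while *Mmrn2* gave -4.62 and *Aplnr* -4.30 without replicate 2 of E16.5. The levels behind these falls were low. Mean FPKM at E14.5 and E16.5 was 1.06 and 0.057 for *Mmrn1*, 3.61 and 0.21 for *Mmrn2* and 3.53 and 0.273 for *Robo4*. It was 4.92 and 0.387 for *Aplnr*, 1.61 and 0.127 for *Flt4* and 9.80 and 1.06 for *Plvap*. All of these but *Plvap* averaged 5 FPKM or more only in the pNC.

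In the E16.5 cornea 4 of these 34 genes still averaged 5 FPKM or more, against 18 genes in the pNC and 8 at E14.5. They are named here after their values were seen. *Ecscr*, a regulator of endothelial migration, was at 11.04 ± 0.726 (SD, n = 3) and *Eng*, the TGFβ co-receptor endoglin, at 9.19 ± 1.72. *Ramp2*, a partner of the adrenomedullin receptor, was at 8.91 ± 2.06 and *Cd34*, a sialomucin of endothelial and progenitor cells, at 7.76 ± 1.22. None of the 4 was called between the corneal stages, with edgeR adjusted p-values of 0.126, 0.513, 0.223 and 0.0141 and log2 fold changes of 0.41, -0.20, -0.51 and -0.88. Without replicate 1 of E14.5, *Cd34* was called lower at -1.12 (adjusted p 0.000123 by edgeR). Against the pNC, 21 of the 34 genes were called lower in the E14.5 cornea and 30 in the E16.5 cornea, beside 7.97% and 15.4% of all tested genes, with medians of -1.20 and -3.46. Among those with 5 FPKM or more in any stage, *Gata2* differed most at E14.5, at -3.12 (SE 0.17, adjusted p 2.44e-07 by edgeR). It encodes a factor of blood and endothelial precursors and gave 0.01 between the corneal stages. At E16.5 against the pNC, *Mmrn1* stood lowest at -6.53, followed by *Aplnr* at -5.86, *Flt4* at -5.75 and *Plvap* at -5.05. *Nos3*, the endothelial nitric oxide synthase, came after them at -4.93 (SE 0.40, adjusted p 1.57e-06 by edgeR). The single gene called higher in both was *Lyve1*, a hyaluronan receptor of lymphatic vessels and of some macrophages, at 0.213 ± 0.112 FPKM in the pNC, 1.91 ± 0.495 in the E14.5 and 1.62 ± 0.355 in the E16.5 cornea.

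A list of 9 endothelial genes known from other work to need ERG in vessels was set beside *Erg*, and it includes *Cdh5*, *Egfl7* and *Kdr*, while its other 6 genes belong to the 34 above. None was called higher in any pair of stages, and 5 were called lower at E14.5 against the pNC, 7 at E16.5 against the pNC and 7 at E16.5 against E14.5, beside 7.97%, 15.4% and 5.47% of all tested genes. Without replicate 1 of E14.5, *Cdh5* was no longer called at E14.5 against the pNC, at -0.98. The medians of the 9 genes were -1.19, -3.31 and -2.30. Their summed FPKM was between 124.0 and 200.5 in the pNC, between 72.6 and 107.7 at E14.5 and between 35.1 and 52.0 at E16.5, while *Erg* was at its highest in the corneal stages.

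Ligands of these receptors were looked at for *Kdr*, *Flt1* and *Tek* together, and 7 of 8 were tested. *Vegfa*, the main ligand of VEGF receptor 2, was the most abundant, at 29.2 ± 3.74 FPKM in the pNC, 40.4 ± 8.09 in the E14.5 and 51.9 ± 1.06 in the E16.5 cornea (SD, n = 3). *Vegfb*, which binds *Flt1*, was at 28.5 ± 2.48, 20.6 ± 1.46 and 21.8 ± 1.42. Neither reached the fold-change minimum in any pair of stages, except that *Vegfa* was called higher at E16.5 than in the pNC, at 1.03, without replicate 3 of E10.5. No ligand was called higher. At each corneal stage 4 were called lower than in the pNC, beside 7.97% and 15.4% of all tested genes, among them *Vegfc*, the ligand of VEGF receptor 3, at -1.77 (SE 0.24) and -1.63 (SE 0.24). Between the corneal stages 1 was called lower, beside 5.47% of all tested genes, the angiopoietin gene *Angpt2* at -1.19 (SE 0.27, adjusted p 0.00717 by edgeR), named after its value was seen.

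By its counts of calls, the ETS family gave a picture apart from the vessel genes. Of 24 other ETS genes 20 were tested, with *Etv2*, *Fev*, *Spdef* and *Spic* too low. At E14.5 against the pNC 5 were called higher and 2 lower, at E16.5 against the pNC 7 higher and 2 lower, and between the corneal stages 3 higher and 0 lower. The medians were 0.19, 0.48 and 0.20, and the shares of all tested genes called higher were 13.6%, 19.4% and 6.26% and called lower 7.97%, 15.4% and 5.47%. *Elf1*, a factor of blood and endothelium that is also expressed widely, was at 7.56 ± 0.812 FPKM in the pNC, 24.8 ± 3.33 in the E14.5 and 31.5 ± 2.74 in the E16.5 cornea (SD, n = 3). It was 2.21 higher at E16.5 than in the pNC (SE 0.12, adjusted p 1.35e-07 by edgeR). *Etv3*, a repressor, stood at 1.33 in the same comparison (SE 0.13) and *Etv1* at 1.33 (SE 0.16). The other ETS genes called higher there were *Ehf* at 9.86, *Elf5* at 4.67, *Elf3* at 3.48 and *Ets2* at 1.67. Of these, *Ehf* and *Elf5* averaged only 0.017 and 0.137 FPKM in the pNC. Some ETS genes ran the other way without a call. *Ets1* and *Elk3*, named after their values were seen, had lower means at each later stage. The means were 18.65, 17.73 and 9.47 FPKM for *Ets1* and 22.9, 18.63 and 11.41 FPKM for *Elk3*. Against the pNC they stood at -0.83 and -0.86 at E16.5, short of the fold-change minimum.

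The genes called higher between the corneal stages were ETS factors of epithelia. *Ehf* rose by 3.13 (SE 0.39, adjusted p 0.000569 by edgeR), from 2.16 ± 1.75 to 16.9 ± 2.38 FPKM. Its E14.5 level was 4.18 in replicate 1 against 1.06 and 1.24, and without replicate 1 its log2 fold change was 4.03. *Elf3* rose by 2.08 (SE 0.39, adjusted p 0.00285 by edgeR), from 4.34 ± 3.31 to 16.3 ± 3.81 FPKM. Its E14.5 level was 8.15 in replicate 1 against 2.7 and 2.17, and without replicate 1 its log2 fold change was 2.89. At E14.5 against the pNC, *Elf3* stood at 1.40 and was not called without replicate 1 of E14.5 (0.59), replicate 2 of E10.5 or replicate 3 of E10.5. The third was *Elf5*, at 1.08 (SE 0.21, adjusted p 0.00355), which averaged 3.23 FPKM in the E16.5 cornea, is named as the last of the 3 and fell short of the fold-change minimum without replicate 1 of E16.5 or replicate 2 of E14.5. The summed epithelial markers moved with them, from between 619.3 and 2088 at E14.5 to between 5216 and 7559 at E16.5, and their part in this was not tested. *Etv4* and *Etv5*, factors that answer FGF signals, were the genes called lower against the pNC, at -2.03 and -1.52 for E14.5 and -3.15 and -1.56 for E16.5. No other ETS gene tested reached the mean level of *Erg* in the cornea, the highest named here being *Ets2* at 57.4 ± 5.35 FPKM at E16.5.

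**Figure D4:**
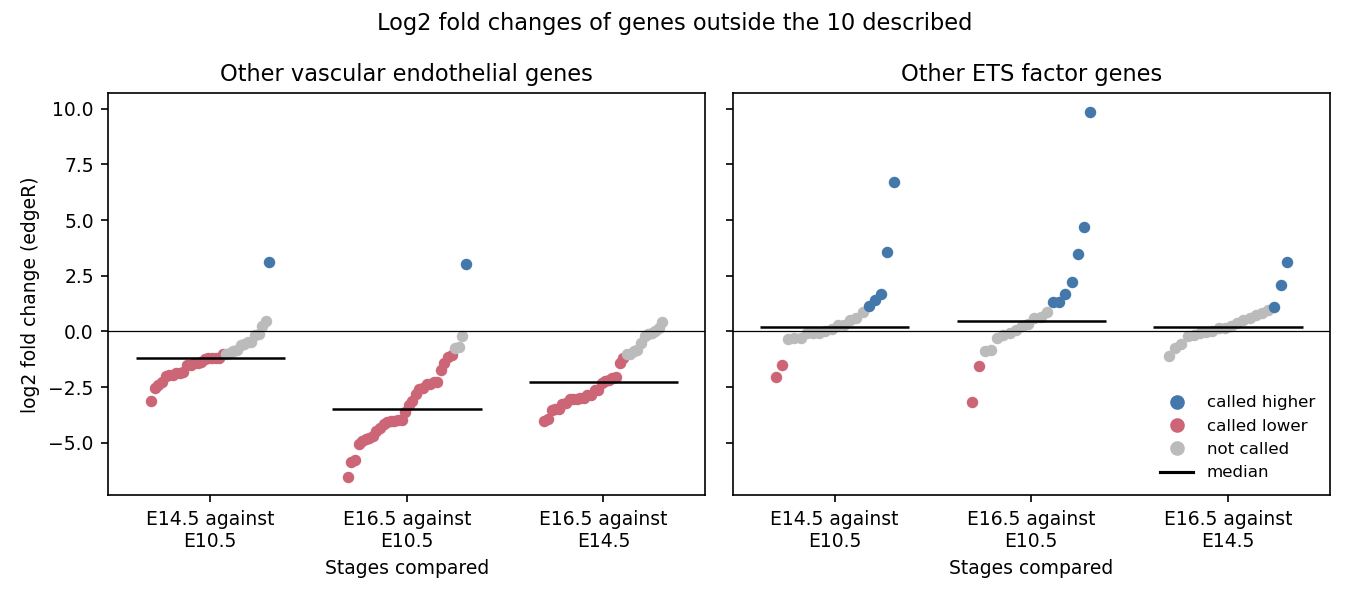
Log2 fold changes from edgeR of 34 other vessel genes and of the 20 tested other ETS genes in the 3 pairs of stages, each dot a gene, with bars at the medians. Vessel genes are mostly called lower, with a median of -2.25 between the corneal stages, while ETS medians lie between 0.19 and 0.48.

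Genes with the most similar course over the 9 samples were sought among 10923 genes, by the root mean square difference of log2(FPKM + 1) profiles centred on their own means. Nearest to *Erg* were *C130021I20Rik* (0.195), *Otx1* (0.212), *Col8a2* (0.216), *Zbtb8b* (0.237) and *Dkk2* (0.240). *Otx1* encodes a homeodomain factor, *Col8a2* a collagen of the basement membrane under the corneal endothelium and *Dkk2* a Wnt antagonist, and none is a vessel gene of the lists used. *Kdr* came at rank 4079 from *Erg* (1.66), *Fli1* at rank 10636 (2.6) and *Cdh5* at rank 10843 (3.11).

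Nearest to *Cdh5* were *Pecam1* (0.247), *Tie1* (0.295), *Col15a1* (0.315), *Plvap* (0.33) and *Esam* (0.387). Of these 5, 3 were among the 10 genes, and *Plvap* was among the 34 other vessel genes. *Emcn* followed at rank 9, *Egfl7* at 44, *Tek* at 65 and *Fli1* at 264, with *Kdr* at 5415 and *Erg* at 10716. Nearest to *Fli1* were *Igf2bp1* (0.0906), *Rbm38* (0.121), *Ranbp1* (0.140), *Foxp4* (0.142) and *Clic4* (0.148), none of which is in the vessel lists. From *Fli1*, *Egfl7* came at rank 193 (0.272), *Tek* at 530 (0.377), *Esam* at 1526, *Tie1* at 2715 and *Pecam1* at 3326. *Cdh5* followed at 5871, *Emcn* at 6248, *Kdr* at 6416 and *Erg* at 10760. The samples share libraries and scaling, so these distances are a description.

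Markers of other cells in or near vessels were followed in the same libraries. For mural cells, the pericytes and smooth muscle around vessels, 8 of 10 genes were tested. At E14.5 against the pNC 2 were higher and 2 lower, beside 13.6% and 7.97% of all tested genes, and at E16.5 against the pNC 1 was higher and 2 lower, beside 19.4% and 15.4%. Between the corneal stages 0 were higher and 3 lower, beside 6.26% and 5.47%. The summed mural level was between 74.1 and 108.1 FPKM in the pNC, 99.7 and 132.8 at E14.5 and 86.0 and 93.2 at E16.5. Most of it came from *Notch3* and *Pdgfrb*, joined at E14.5 by *Tagln*, the smooth muscle gene transgelin, at 39.2 ± 5.28 (SD, n = 3). Of the rarer genes that mark pericytes, *Abcc9* and *Rgs5*, named after their values were seen, had lower means at each later stage. *Cspg4* of the same list did not, with means of 0.803 FPKM in the pNC, 1.24 at E14.5 and 0.473 at E16.5. *Abcc9*, a subunit of a potassium channel, was at 4.1, 0.863 and 0.31 FPKM, and its fall of 1.32 between the corneal stages (SE 0.35, adjusted p 0.0141 by edgeR) was not called without replicate 1 or replicate 3 of E16.5. *Rgs5*, a regulator of G protein signaling, was at 1.28, 0.21 and 0.123 FPKM.

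Red blood cell genes were lower in the cornea in part. Of 9 tested, 7 were called lower at E14.5 and 8 at E16.5 against the pNC and 5 between the corneal stages, beside 7.97%, 15.4% and 5.47% of all tested genes, with none higher. Their summed FPKM was between 5057 and 7911 in the pNC, 1825 and 2347 at E14.5 and 649.6 and 1359 at E16.5. Embryonic globins are replaced by adult globins as an embryo grows, and most of the pNC sum was embryonic, with *Hbb-y* at 2452, *Hba-x* at 1612 and *Hbb-bh1* at 1067 FPKM. *Hbb-y* was at 401.8 in the E14.5 and 2.87 in the E16.5 cornea. The adult globin *Hba-a1* was at 1478 ± 308 in the pNC, 1641 ± 510 in the E14.5 and 1007 ± 352 in the E16.5 cornea (SD, n = 3) and was not called in any pair of stages. In replicate 1 of E14.5, the library with the least vessel RNA of its stage, *Hbb-y* was at 117.3 against 550.4 and 537.8, while *Hba-a1* was at 2187 against 1176 and 1561. Genes of megakaryocytes and platelets, cells that also use *Erg* and *Fli1*, were called lower in 1 of 5 tested at E16.5 against the pNC and in 1 of 5 between the corneal stages, beside 15.4% and 5.47% of all tested genes, and in 0 of 5 at E14.5 against the pNC. Their sums ran from 21.0 to 32.9, 22.5 to 35.6 and 22.6 to 28.4 FPKM, with *Gp9* and *Gp6* at 0 in the E16.5 samples.

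Lists of cells outside vessels completed the setting. Genes of macrophages and leukocytes were higher in 2 of 10 at E14.5 and 1 of 10 at E16.5 against the pNC, beside 13.6% and 19.4% of all tested genes, and 0 were called between the corneal stages. *Erg* is also known from developing cartilage, and of 5 cartilage genes tested 3 were lower at E14.5, 2 were higher and 2 lower at E16.5 against the pNC and 2 were higher between the corneal stages, in a list of only 5 against the shares given for the ETS genes. Genes of the corneal endothelium were higher in 5 and lower in 1 of 7 at each corneal stage against the pNC, and 1 was lower between the corneal stages, against the same shares. Their summed FPKM was 122.4, 142.0 and 101.5 in the pNC, 517.3, 692.9 and 796.7 at E14.5 and 369.1, 437.8 and 445.1 at E16.5. All 6 stromal and all 7 epithelial genes were higher at both corneal stages than in the pNC, and 5 of each were higher at E16.5 than at E14.5. The part of any of these cell types in the level of *Erg* was not tested.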

How the data were processed

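RNA-Seq was done on 9 bulk samples, 3 per stage. The authors mapped reads with Bowtie 2 and HISAT (GRCm38) and quantified genes with RSEM. The tool versions are not given in the sources used here. The deposited expected counts are estimates that are not normalized, and the deposited FPKM values were scaled by the authors to transcript length and library total. A gene absent from a file was taken as 0.

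Genes were matched by Entrez ID, and 19312 of 19369 had a symbol. Rounded expected counts were fitted over all 9 samples with edgeR 4.0.16 in R 4.3.3 (TMM, filterByExpr, quasi-likelihood). limma 3.58.1 and DESeq2 1.42.0 served as alternatives, with each sample also left out in turn. Upstream windows came from RefSeq coordinates on GRCm38.p6. Ratios and likeness were computed with pandas 2.3.3.

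Names beside the 10 genes were drawn, from each list, from up to 6 called genes per pair of stages that averaged 5 FPKM or more in any stage, largest change first, with the 2 most abundant genes of other cell types, and the 5 genes nearest to *Erg*, *Fli1* and *Cdh5*. Others are said to be chosen after their values were seen. The genes and lists were chosen with earlier results of these data known. The totals make counting error small except for genes with few counts, where the floor is 3 counts. Replicates are labelled biological. The p-values set each difference against the spread between replicate pools, estimated in a single fit over all 9 samples of the 3 stages.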

Additional observations from a re-analysis of the deposited data

How the results depend on the processing

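Direction and call stayed as reported for 516 of the fold changes recomputed for the 10 genes, with 14 no longer called and 10 of opposite sign. The cause was not tested for any of them. Those of opposite sign were *Kdr* and *Erg*, never called. *Kdr* at E14.5 against E10.5 was -0.05 without replicate 3 of E10.5 and -0.071 without replicate 3 of E14.5, within -0.071 to 0.37 over all samples left out. *Kdr* at E16.5 against E10.5 was -0.036 with library totals, -0.00304 with limma on log2(FPKM + 1), -0.00196 on log2(FPKM + 0.1) and -0.10 without replicate 3 of E10.5, within -0.10 to 0.28. Between the corneal stages, *Erg* was 0.11 and *Kdr* 0.19 without replicate 3 of E14.5, and *Erg* was 0.05 and *Kdr* 0.07 without replicate 1 of E16.5, within -0.16 to 0.11 for *Erg* and -0.25 to 0.19 for *Kdr*. The calls lost belonged to *Pecam1*, *Cdh5* and *Tie1* at E14.5 against E10.5, where DESeq2 called 6 genes lower in place of 8, and to *Fli1* between the corneal stages, at -0.88 with limma on log2(FPKM + 1).

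Leaving out 1 sample at a time gave 5 to 8 of the 10 genes lower at E14.5 against E10.5 and 7 to 8 lower at E16.5 against E14.5. The other vessel genes kept within 17 to 24, 29 to 31 and 22 to 25 called lower. Counts of ETS genes were less steady. For ETS genes higher at E14.5 than at E10.5, limma on log2(FPKM + 1) gave 3, no fold-change minimum gave 8 and leaving out samples gave 4 to 5, in place of 5. Without a fold-change minimum, 5 ETS genes in place of 2 were lower at E16.5 against E10.5, and 7 in place of 3 were higher at E16.5 against E14.5, where leaving out samples gave 2 to 4. ETS genes lower at E16.5 against E14.5 numbered 1 in place of 0 with library totals, DESeq2, limma on log2(FPKM + 0.1) or no fold-change minimum, and 0 to 1 with samples left out. The ratio of *Erg* to vessel genes was 0.204 in the pNC, 6.86 in the E14.5 and 15.5 in the E16.5 cornea with the mean of the 8 genes. It was 0.171 and 6.32 at E10.5 and E14.5 against *Cdh5* and 0.246 and 9.01 at these stages against *Pecam1*. At E16.5 it was 151.5 ± 186 against *Cdh5* and 113.8 ± 72.2 against *Pecam1* (SD, n = 3). Leaving out 1 sample gave 0.213 to 0.230, 7.94 to 10.2 and 52.5 to 126.2.

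With library totals in place of TMM, the median log2 fold change of all tested genes between the corneal stages was -0.19 in place of -0.02, and 731 genes were called higher and 1099 lower in place of 924 and 808. Samples with the same replicate number were not taken as pairs, since deviations from the stage means correlated at -0.0164 on average for the same number (n = 9 pairs) and at 0.00917 for different numbers. With the replicate block, 8 of the 10 genes and 23 of the 34 other vessel genes were lower between the corneal stages, as without it, and no count differed by over 1.5 times.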
